A study of Drosophila melanogaster with 2 samples.

Results

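The translation initiation factor genes of Drosophila melanogaster were examined for binding by Doc2, a T-box transcription factor of the Dorsocross group. The genes were chosen by name, as all protein-coding genes whose symbol starts with eIF and a digit, and 44 of 13945 protein-coding genes on the 6 main chromosomes (X, 4 and the arms of the large autosomes) met the rule. They were proposed with earlier results of the same peak lists known, so all counts are descriptions with no test. The gene for eIF5A carries an elongation factor symbol, eEF5, and was counted with the elongation factors.

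Whole embryos of the strain Doc2-GFP were collected at 0 to 18 h, and an anti-GFP antibody was used to precipitate their chromatin. They carry a transgene for a Doc2-eGFP fusion protein. There was 1 group with 2 biological replicates and no contrast between conditions. The labels do not state which promoter drives the fusion, and a control library was not analysed here. A peak averages over all cells of the embryo, so weak binding in many cells and strong binding in few cannot be told apart. Each peak carries a signal, a value given by the authors' peak caller on a scale the labels and notes do not give. It is not to be read as a fold enrichment. Each peak also has a score, which rises as the irreproducible discovery rate (IDR) of 2 compared peak sets falls. The series list holds peaks with a score of at least 830, an IDR of 0.01, and had 1140 peaks on these chromosomes with a median signal of 105. The longer ranked list, which contains it, had 140206 peaks with a median signal of 23.3. The replicates' own thresholded lists held 777 and 468 peaks, and each replicate also had a ranked list. Each list has its own signal scale, so values of a peak in different lists are given side by side and not as changes. Read depth is unknown.

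Initiation factors bring the ribosome, the initiator tRNA and the mRNA together. The eIF2 complex carries the initiator tRNA and is recharged with GTP by eIF2B. The eIF4 factors bind the mRNA cap and unwind the leader, eIF3 is a scaffold on the small ribosomal subunit, eIF1, eIF1A and eIF5 act in start codon selection, eIF5B joins the subunits, and eIF6 keeps the large subunit from joining early. Most of these genes are used in nearly every cell, while several eIF4E and eIF3 paralogs of the fly are known mainly from the testis.

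The sequences around 5 summits that the results turn on are given 5′ to 3′ on the plus strand of dm6, read from the RefSeq genome of the same assembly. Those of eIF4B (3L:27650926-27651126), eIF4EHP (3R:24109084-24109284) and eIF1 (3L:3222961-3223111) are shown for the peak farthest from its gene, a strong peak missing from the series list, and a motif close to the summit. Those of eIF4E3 (3L:8228448-8228648) and eIF4H2 (3R:30716843-30717043) are shown because these peaks fell below the threshold. Capitals mark the 11 bases at the summit in eIF4EHP and eIF4E3, and a motif in the others: ACAGTG on the minus strand in eIF4B, TATCGATA in eIF1 and CAGCTG, an E-box, in eIF4H2.
eIF4B: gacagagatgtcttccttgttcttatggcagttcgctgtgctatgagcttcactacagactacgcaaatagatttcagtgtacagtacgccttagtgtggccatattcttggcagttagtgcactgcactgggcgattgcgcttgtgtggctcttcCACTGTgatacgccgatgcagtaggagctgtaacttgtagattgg
eIF4EHP: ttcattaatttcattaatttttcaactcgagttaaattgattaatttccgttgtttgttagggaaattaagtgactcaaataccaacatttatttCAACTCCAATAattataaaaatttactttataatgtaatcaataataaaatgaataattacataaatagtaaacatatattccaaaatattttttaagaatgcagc
eIF1: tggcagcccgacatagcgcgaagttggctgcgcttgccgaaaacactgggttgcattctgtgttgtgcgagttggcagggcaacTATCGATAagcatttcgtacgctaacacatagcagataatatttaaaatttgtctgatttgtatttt
eIF4E3: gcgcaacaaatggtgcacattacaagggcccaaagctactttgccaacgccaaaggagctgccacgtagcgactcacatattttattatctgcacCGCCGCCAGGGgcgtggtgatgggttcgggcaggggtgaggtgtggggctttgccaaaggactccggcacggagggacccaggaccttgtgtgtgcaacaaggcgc
eIF4H2: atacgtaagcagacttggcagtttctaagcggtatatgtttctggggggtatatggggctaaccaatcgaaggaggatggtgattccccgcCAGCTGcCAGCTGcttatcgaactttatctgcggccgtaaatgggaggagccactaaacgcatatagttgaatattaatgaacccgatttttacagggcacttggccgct
The eIF4EHP window was 20.4% GC, against 58.7% for eIF4E3 and a median of 37.3% over all series summits. Soft-masked repeat sequence made up 64.2% of the eIF4EHP window.

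Doc2 peaks were assigned to 4 of the 44 genes. These were eIF6, eIF3c, eIF4B and eIF5B, each the nearest protein-coding gene, by transcription start site (TSS), to the summit of 1 series peak. The share of 9.09% stood beside 6.94% of all protein-coding genes, a difference of about 1 gene, and is no result about the group. In the authors' conservative list the count was 3 genes, eIF6, eIF3c and eIF4B, against a background of 6.39%. The own list of replicate 2 held the same 3 genes, 6.82% against 3.03%. That of replicate 1 held them and eIF4E3, 4 genes or 9.09% against 4.95%, but eIF4B only through peaks other than its series peak. With so few genes, these shares are no result about the group either. A summit in the series list lay within 500 bp of a TSS for 3 genes, eIF6, eIF3c and eIF5B, against 5.02% of all genes. In the ranked list 33 of 44 were nearest to some peak, against 80.6%, and 25 had a summit within 500 bp, against 64%. The median promoter signal of those 25 genes was 31.8, and that of the 8926 genes with one was 32.0. Of the 4 series peaks, 2 overlapped a peak in the own list of each replicate, eIF6 and eIF3c, against 33.9% of all series peaks.

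**Figure D1:**
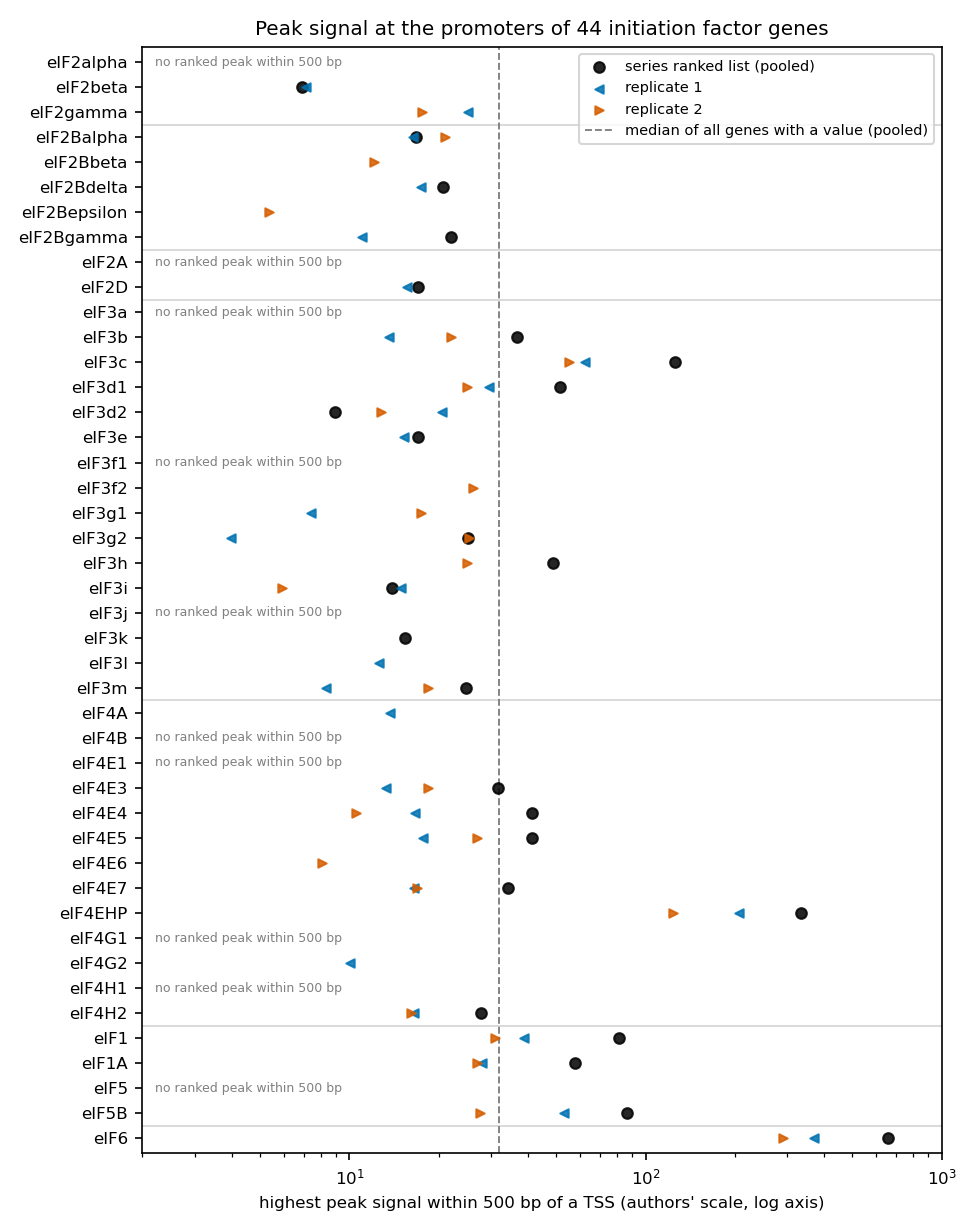
Highest ranked-peak signal within 500 bp of a TSS (log axis, authors' scale) for each of 44 genes, grouped by role from the eIF2 complex at the top to eIF6 at the bottom; circles are the pooled series list, triangles the 2 replicates, and the dashed line is the median of all genes, 32.0. Only eIF6, eIF4EHP and eIF3c exceed 100 in the pooled list.

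None of the eIF2 and eIF2B genes was nearest to a series peak. Of the 3 eIF2 genes, eIF2beta alone had a pooled ranked peak at its promoter, with a signal of 6.92, the lowest among all initiation factor genes with such a peak. The gene eIF2gamma shares its TSS with Su(var)3-9, a histone methyltransferase gene, and had promoter peaks only in the replicates' ranked lists, of 25.2 in replicate 1 and 17.6 in replicate 2. Promoter peaks of 3 of the 5 eIF2B genes ranged from 16.8 to 22.1, all below the median of all genes. The peak at eIF2Bdelta, of 20.6, had its summit 113 bp upstream of that gene but 23 bp from the TSS of roh, and was assigned to roh.

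The eIF2Bbeta gene, which encodes a subunit of the exchange factor and was singled out after its values were seen, lies head to head with Ugalt, a UDP-galactose transporter gene, with their TSSs 719 bp apart. A series peak with its summit between them (X:2703742-2704028) had a signal of 1001, with 562 in replicate 1 and 437 in replicate 2. Its summit was 690 bp upstream of the eIF2Bbeta TSS and nearer to Ugalt, so the peak was counted for Ugalt. The strongest ranked peak assigned to eIF2Bbeta had a signal of 21.2 and lay 603 bp downstream of its TSS. Of the alternative initiator tRNA carriers, eIF2A had no ranked peak and eIF2D had a promoter signal of 17.1.

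Of the 16 eIF3 genes, 14 were nearest to a ranked peak, 10 had a ranked summit within 500 bp and 1, eIF3c, had a series peak. The promoter signals of the 10 ran from 8.91 to 126, with a median of 24.9. The peak of eIF3c, a core subunit of the complex, lay at 2R:17665457-17665806 in intergenic sequence. Its summit was 46 bp upstream of the first eIF3c TSS and 127 bp upstream of the second. The signal was 126 in the pooled list, 62.3 in replicate 1 and 55.1 in replicate 2, and 416 of 1140 series peaks were at least as strong. The scores in the same order were 1000, 1000 and 952. The replicate 1 summit lay 42 bp from the pooled summit and the replicate 2 summit 5 bp from it. The divergent neighbour CCHa1-R, a neuropeptide receptor gene, starts 610 bp away. The next promoter signals in the family were 51.5 at eIF3d1 and 48.7 at eIF3h, both named after their values were seen.

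The strongest peak of eIF3g2, a paralog of eIF3g1, was just below the threshold, with a score of 818 and a signal of 68.6. It lay 2550 bp downstream of the TSS in an intron of Gfrl, with 35.0 in replicate 1 and 35.6 in replicate 2. The replicates' own scores for it were lower, 39 in replicate 1 and 213 in replicate 2. At the eIF3g2 promoter itself the signal was 25.1.

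Among the 13 eIF4 genes, 8 were nearest to a ranked peak, 6 had one within 500 bp and 1, eIF4B, had a series peak. The promoter signals of the 6 ran from 27.7 to 335, with a median of 37.8. In the pooled list no ranked peak was nearest to eIF4A, the helicase, eIF4E1, the main cap-binding protein, or the scaffold gene eIF4G1. At the eIF4A promoter replicate 1 alone had a ranked peak, of 13.7. The gene eIF4G1 is on chromosome 4, where the series list had no peak. The other scaffold gene, eIF4G2, shares its TSSs with CG33111, and ties went to CG33111, so no peak could be assigned to eIF4G2. Within 500 bp of its TSSs only replicate 1 had a ranked summit, of 10.1.

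The peak assigned to eIF4B, a cofactor of the helicase, was far from the gene. It lay at 3L:27650851-27651200, 207245 bp downstream of the TSS and past the end of the gene, in intergenic sequence with no annotated gene of any type within 3000 bp. Of all series peaks, 17 (1.49%) lay more than 100 kb from a TSS. Because coding genes are sparse there, eIF4B was the nearest gene over 366.6 kb and took 177 of the 467 ranked peaks assigned to initiation factors. The signal was 115 in the pooled list, 40.6 in replicate 1 and 68.5 in replicate 2. Only replicate 2 had it in its own list, with a score of 1000 against 540 in the ranked list of replicate 1. What the own list of replicate 1 gave to eIF4B were 2 other, overlapping peaks, 129965 and 129762 bp from the TSS, the stronger with a signal of 50.4. The sequence printed above holds ACAGTG 59 bp from the summit. At the eIF4B promoter neither the pooled nor the replicates' ranked lists had a summit within 500 bp.

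The strongest promoter peak of the eIF4 genes was absent from the series list. It lay at 3R:24109009-24109358 between eIF4EHP and CG18428, which are head to head with TSSs 376 bp apart. The protein eIF4EHP binds the cap without recruiting eIF4G and represses translation in the early embryo; the gene was singled out after its values were seen. The summit was 224 bp upstream of eIF4EHP and 152 bp upstream of CG18428, so the rule gave it to CG18428. The signal was 335 in the pooled ranked list, 207 in replicate 1 and 124 in replicate 2, all with a score of 1000. By its promoter signal eIF4EHP ranked 59 of 8926 genes. The peak was nonetheless missing from the series list, the conservative list and both replicates' own lists. Of 1214 ranked peaks past the threshold, 74 were not in the series list, and none of the 74 overlapped a series peak. The deposited notes give 1 more input file for the thresholded lists than for the ranked lists and do not say what it holds, so whether these peaks were removed as an excluded region was not tested. The eIF4EHP values are thus those of a peak that the authors' final lists do not keep.

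**Figure D2:**
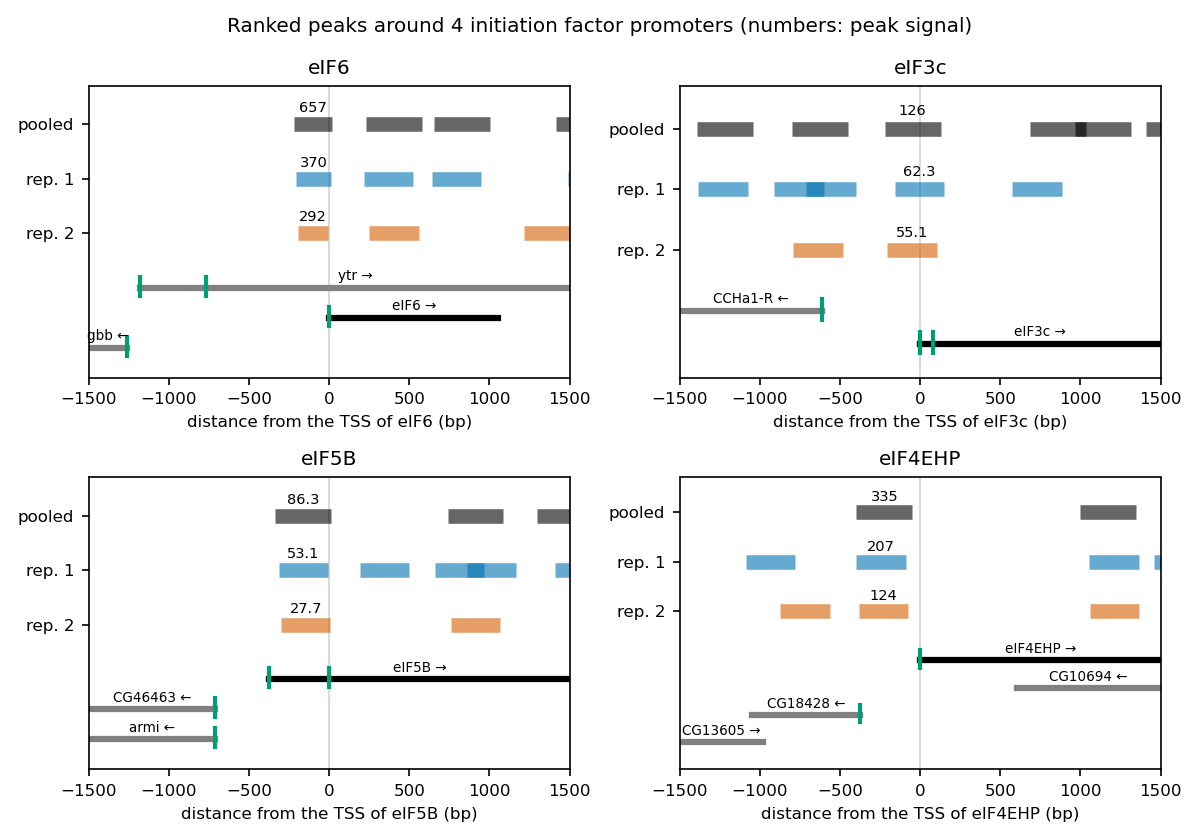
Ranked peaks (bars) in the pooled list and in each replicate around the promoters of eIF6, eIF3c, eIF5B and eIF4EHP, drawn by distance in bp from a TSS of the named gene (for eIF5B and eIF3c, their TSS nearest to the summit); gene models are below with arrows for direction and green ticks for TSSs. All 4 promoters carry a peak in both replicates, from 370.1 and 292 at eIF6 to 53.1 and 27.7 at eIF5B.

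Among eIF4 paralogs, the strongest peak of eIF4E3, a cap-binding protein of the male germ line, had a score of 805, below the threshold. Its signal was 70.1 in the pooled list, 54.6 in replicate 1 and 27.0 in replicate 2, and it lay 676 bp upstream of the TSS. Replicate 1 had it in its own list with a score of 893, against 135 in replicate 2. The peak of eIF4H2, a helicase cofactor, had a score of 504 and a signal of 68.5, with 24.0 in replicate 1 and 40.5 in replicate 2. It lay 9144 bp upstream and held CAGCTG 2 times, centred 6 and 1 bp from the summit. The strongest peak of eIF4E4 had a signal of 58.4 and lay 17882 bp from its TSS.

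All 3 of the start site and joining factor genes with a promoter peak were above the median of all genes. The peak of eIF5B, the subunit joining GTPase, lay at 3L:3460591-3460940 in the 5′ UTR of the gene. Its summit was 211 bp downstream of the outer TSS and 163 bp upstream of the inner. The pooled signal was 86.3 with a score of 910, the lowest score of the 4 series peaks. Replicate 1 gave 53.1 with a score of 526 and replicate 2 gave 27.7 with a score of 108, so neither replicate's own list held it. Nor did the conservative list, and in the ranked list that contains all conservative peaks its score was 686.

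The eIF1 promoter, chosen after its values were seen, had a signal of 81.2 with a score of 751, below the threshold. In the replicates its signals were 39.0 and 31.0, with scores of 41 and 133. Its summit was 305 bp upstream of eIF1 and 76 bp upstream of RpL28, a ribosomal protein gene that starts 381 bp from eIF1, and TATCGATA lay 13 bp from it. The strongest ranked peak nearest to eIF1 itself had a signal of 38.8, 77 bp upstream of the TSS. At eIF1A the strongest peak was 75 bp upstream of the TSS, with 57.7 in the pooled list, 28.0 in replicate 1 and 27.1 in replicate 2. The fourth gene, eIF5, shares its TSS with CG46312 and had no ranked peak within 500 bp in the pooled list or in either replicate.

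Among the initiation factor genes, eIF6 had the strongest peak. It lay at 2R:23850283-23850522, with its summit 102 bp upstream of the TSS, in an intron of ytr. The signal was 657 in the pooled list, 370.1 in replicate 1 and 292 in replicate 2, each with a score of 1000. It ranked 10 of 1140 series peaks and, by promoter signal, eIF6 ranked 12 of 8926 genes. The replicate summits lay 2 and 3 bp from the pooled summit, and the peak was 240 bp wide against a median of 350 bp. TATCGATA, the site known for the factor DREF, lay 94 bp from the summit and 8 bp upstream of the TSS. An antisense noncoding gene, asRNA:CR45928, also starts near the summit.

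**Figure D3:**
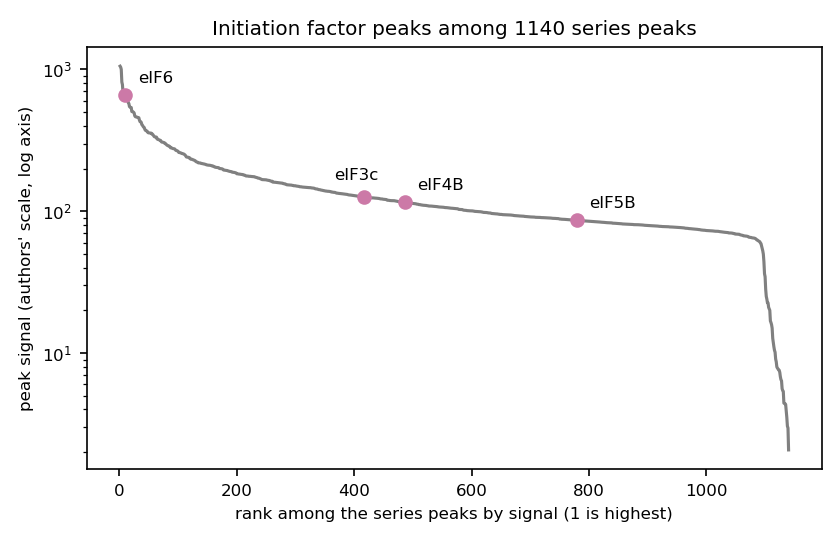
Signal of the 1140 series peaks (log axis, authors' scale) against rank, with the 4 initiation factor peaks as points. The peak of eIF6 is at rank 10, and those of eIF3c, eIF4B and eIF5B are at 416, 486 and 779.

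The 4 series peaks had a median signal of 121, against 105 over all series peaks. Their median distance to the TSS was -74 bp, against -101.5 bp, where minus is upstream. Signed medians hide how far peaks lie to either side. Without the sign the medians were 132.5 bp and 723 bp, and 44.1% of all series summits lay within 500 bp of a TSS. Ranked promoter summits of the 25 genes were upstream in 9 (36%) and downstream in 16, against 45.1% upstream over the 8926 genes, and their median position was 200 bp, against 48 bp. Members without a series peak numbered 40. Of these, 29 had a ranked peak, with strongest signals from 13.3 to 70.1.

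**Figure D4:**
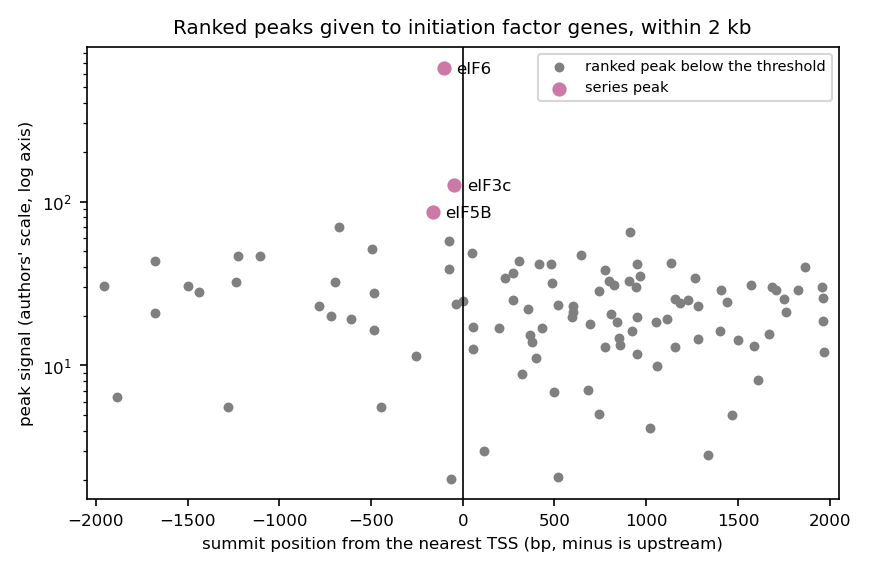
Summit position in bp from the nearest TSS against signal (log axis, authors' scale) for the 105 ranked peaks within 2000 bp that were assigned to initiation factor genes. The series peaks of eIF6, eIF3c and eIF5B are upstream, while 27 of the 105 peaks are upstream in all.

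On both strands, 6 motifs were searched within 100 bp of each summit; none contains another. ACAGTG was near 1 of 4 summits, eIF4B, against 22.6% of all series summits. TATCGATA was near 1, eIF6, against 2.02%. GGTGTGA, a T-box site, was near none, against 1.58%. GGTCACACT (0.526% of all series summits), GAGAGAG (3.42%) and CAGCTG (8.95%) were near none of the 4.

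In promoters, from 250 bp before to 50 bp after each gene's start, TATCGATA was in 12 of 44 genes, against 9.36% of all promoters. They were eIF1A, eIF2Bbeta, eIF2alpha, eIF2gamma, eIF3a, eIF3c, eIF3f1, eIF3l, eIF4A, eIF4B, eIF4E6 and eIF6. A series summit lay within 500 bp of a TSS for 2 of those 12 genes and 1 of the other 32. Over all genes the shares were 6.36% with the motif and 4.88% without it. ACAGTG was in 7 promoters, against 13.9%, GGTGTGA in 4, against 2.87%, and GGTCACACT in 3, against 6.05%. CAGCTG was in 4 (17.7% of all) and GAGAGAG in 1 (5.87%).

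Of the 44 genes, 21 lay head to head with a coding gene within 1000 bp, or 47.7%, against 36.2% of all genes. A promoter series summit was found in 2 of these 21, or 9.52%, against 9.07% of all head-to-head genes, and in 4.35% of the others, against 2.72%.

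Other translation genes were read from lists by function. Of 8 elongation factor genes, 1 had series peaks, eEF1gamma, which had 2. The stronger, with a signal of 233, lay 5732 bp upstream of its TSS and was in both replicates' own lists, while that at the promoter, 4 bp upstream, had 110 and was in neither. None of 5 termination and recycling genes, 19 initiation regulators and 2 mitochondrial initiation factor genes had one. Of 20 cytosolic aminoacyl-tRNA synthetase genes, which load tRNAs, 3 (15%) did, against 6.94% of all genes. SerRS had a signal of 184 at 3 bp upstream of the TSS and was in both replicates' lists. IleRS had 106 at 164 bp upstream, in replicate 1 only, and ThrRS had 77.3 at 201 bp upstream, in neither. With GluProRS, 4 of the 20 (20%) had a series summit within 500 bp of a TSS, against 5.02% of all genes. The GluProRS summit was 137 bp upstream of that gene but nearer to AP-1sigma, with a signal of 204, and was in both replicates' lists. These lists are short and were chosen with earlier results of these data known, so the shares are descriptions and no result about the synthetases.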

How the data were processed

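Chromatin immunoprecipitation libraries of 2 replicates were used through the peak lists the authors deposited, on dm6 per the labels. Neither labels nor notes name the aligner or peak caller, and read depth is unknown, so no counting interval is given. Signal is the peak signal value and score the scaled IDR score, both as the authors deposited them. The ranked lists also hold the deposited −log10 of the IDR. Per the deposited notes, every list was made against a control. The series and conservative lists are lists of the whole series, and each replicate also has its own lists. All series peaks are in the ranked list used here, while all conservative peaks are in a different ranked list. A series score is therefore not read here as agreement between the 2 replicates. The genes and lists were chosen with earlier results of these data known.

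Peaks on 6 main chromosomes (1140 of 1230 in the series list) were assigned to the nearest protein-coding TSS of any transcript (Ensembl release 115, coordinates 1-based) from the summit, with pandas 2.3.3 in Python 3.11.15. Lists were matched by overlap of at least 1 bp. Named genes were all with a series peak, the 5 strongest without one, and genes from other lists with a series peak; other genes named in the text were chosen after their values were seen. Scripts were tested on simulated data. There is 1 group, so nothing was tested between groups. Tor of the regulator list was not matched to a symbol in these gene models.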

Additional observations from a re-analysis of the deposited data

How the results depend on the processing

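Of 58 values recomputed, each 1 result under 1 alternative setting, 48 stayed within the spread or, for counts, within 1.5 times. Among these, counting summits in the gene body or within 5000 bp gave 6 genes, adding eIF2beta, eIF3d2 and eIF2Bbeta and losing eIF4B. The share over all genes was not computed under this rule or the next, so neither count is a result about the group. With the nearest TSS of any annotated gene, transposons and noncoding genes included, 2 genes had a series peak (eIF3c and eIF5B), 1 peak was in both replicates' lists, the median signal was 106 and 0 summits held ACAGTG; eIF6 went to its antisense RNA. In the replicates' own lists the median signal was 54.6 to 68.5, since these are other lists, and the median distance to the TSS was -51 to -4 bp. With 1 TSS per gene the median distance was 82.5 bp; the cause is the peak of eIF5B, which lies between its TSSs. ACAGTG was near 0 summits within 50 bp and 2 within 250 bp. The alternatives with the past-threshold peaks that the series list leaves out, and that without the eIF4B peak, were chosen after seeing the data. No paired analysis was possible because there is only 1 group. Unknown depth and 2 replicates limit every value.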
